A study of Caenorhabditis elegans with 8 samples.

Results

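The small subunit of the ribosome binds the messenger RNA and checks each codon against its transfer RNA. In Caenorhabditis elegans its proteins are encoded by genes named rps. Every growing cell makes these proteins in matched amounts, and a fast-growing larva needs many of them, so their messages are usually abundant and tend to move together. The 31 rows described here are those of rps-0 to rps-30, chosen by sequence name from the 45461 rows of a table of raw read counts. All 31 rows were present and held 89279 counts, 1.39% of all counts. The companion genes rack-1 and ubl-1, which encode further components of the same subunit, are set beside them where they help.

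Total RNA was read from C. elegans larvae at the L2 stage, grown at 20 °C on live E. coli OP50 from synchronized eggs. All worms were N2 carrying jrIs2[Prpl-17::Grx1-roGFP2], a fluorescent sensor of the glutathione redox state driven by the promoter of rpl-17, itself a ribosomal protein gene. The labels divide them into oxidized and reduced worms, with 4 biological replicates each, numbered 1, 2, 3 and 5. Each replicate pooled about 10000 worms, and the labels name no treatment that differs between the groups. The labels of replicate 5 conflict, since its source names state the reverse of its redox entries, so results with its labels exchanged are given as well. In bulk RNA of whole worms, fewer cells of a type and less RNA per cell cannot be told apart.

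Each library held between 635990 and 1089259 counts. On these raw totals, 3 counts, the floor used here, equalled between 2.75 and 4.72 CPM (counts scaled to a common library total), which covers counting error only. The CPM values below use TMM-scaled totals instead, so rows are set against the floor in counts. The lowest member value, 7 counts for rps-29 in reduced replicate 5, lay above that floor. The rows may not measure the named genes' own strand, because no source used here states the strand setting of the counting. The 12 mitochondrial protein-coding rows held 190 counts, 0.00297% of the total. The 7 small nucleolar RNA rows annotated in introns of rps-4, rps-12, rps-13, rps-23 and rps-29 held 0. What this means for the rps rows was not tested, so values below are those of rows. Of 12 adult or germline marker rows, such as the yolk genes vit-1 to vit-6, 9 were at 0 and the rest held 39 counts in all. All 20 marker rows of body wall muscle, intestine, hypodermis and neurons had counts.

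The 31 genes lie on 5 chromosomes, 8 on I, 1 on II, 9 on III, 10 on IV and 3 on V, and their merged exons span 252 to 998 bases (Ensembl annotation of WBcel235; no source used here names the authors' build). For 29 of the 31, no exon of a gene on the other strand shares a base with theirs. The exceptions were rps-18, which shares 50 bases with hhat-2 (197 counts), and rps-16, which shares 12 bases with T01C3.11. The T01C3.11 row held 30275 counts, against 1093 for the rps-16 row. The rps-20 exons contain the 110 bases of the microRNA gene mir-354 on the same strand.

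The question of how abundant each row was is answered per exon length, in CPM per kb of merged exon. Levels ran over a 58.5-fold range, and rps-25 stood far above the others. This gene (K02B2.5), at chromosome IV 5947093 to 5947605, encodes eS25, a protein that in yeast and mammals is needed for initiation at some internal ribosome entry sites. Its row had 3519.5, 1039, 2385 and 1296 CPM in oxidized replicates 1, 2, 3 and 5, against 1361, 4609.7, 2688 and 1366 CPM in reduced replicates 1, 2, 3 and 5. Per length this was 5150.0 ± 2836 CPM per kb in oxidized and 6266 ± 3838 in reduced worms (SD, n = 4 each), and the groups overlapped throughout. The row ranked first of 31 in all 8 libraries, at 2.93 times the mean of the next row and 11 times the median row. It held 17.6% of the counts of all 31 rows. No other annotated gene shares an exon base with it.

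Next came rps-10, rps-24 and rps-3, whose order changed between libraries. The rps-10 row (D1007.6, chromosome I 4583913 to 4584505), for a protein of the subunit's head, stood at 1979 ± 552 CPM per kb in oxidized and 1919 ± 446 in reduced worms. The rps-24 row (T07A9.11, IV 385887 to 386606) stood at 1598 ± 1069 in oxidized and 1894 ± 1121 in reduced worms, and the rps-3 row (C23G10.3, III 6206803 to 6207965), for a protein at the entry of the messenger RNA channel, at 1440.2 ± 442 and 1396 ± 422 in the same order (SD, n = 4 each). In every library these 3 rows took ranks between 2 and 5. The median row stood at 521 CPM per kb, and 22 of the 31 lay between 1/2 and 2 times that value.

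At the low end were rps-29, rps-22, rps-5 and rps-27. The rps-29 row (B0412.4, III 794300 to 795031), for a small zinc-binding protein of the head, had 35.2, 15.7, 26.6 and 16 CPM in oxidized and 32.1, 52.1, 20.9 and 8.45 CPM in reduced replicates 1, 2, 3 and 5, on counts of only 7 to 52 per library. It ranked last in 5 of 8 libraries, at 88.2 ± 35.5 CPM per kb in oxidized and 107 ± 69.8 in reduced worms. The rps-22 row (F53A3.3, III 1950535 to 1951425) had 91.7 ± 36 in oxidized and 161 ± 61.1 in reduced worms. The rps-5 row, for the head protein uS7 (T05E11.1, IV 11110157 to 11111045), had 171 ± 91.4 and 158 ± 84.8 CPM per kb in oxidized and reduced worms, and the rps-27 row (F56E10.4, V 103394 to 104077), for another zinc-binding protein, 152 ± 114 and 206 ± 156 (SD, n = 4 each).

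In none of the 30 neighbouring pairs did the ranges over the 8 libraries lie apart. The rows moved together between libraries, by up to 3.41-fold on average, while the largest ratio of neighbouring means was 2.93. Overlap of these ranges therefore cannot show whether neighbours differ within a library. Within single libraries, 3 pairs kept their order in all 8, namely rps-25 over rps-10, rps-3 over rps-8 and rps-8 over rps-7. The order as a whole was shared by the groups, with Spearman's rho of 0.98 between the oxidized and the reduced means over the 31 rows. Between single libraries rho ran from 0.80 (oxidized replicate 5 with reduced replicate 2) to 0.97 (oxidized replicate 1 with reduced replicate 2), with a median of 0.93 over 28 pairs. These coefficients are across genes, which are not independent replicates, and gene length and the counting are common to all libraries. Level did not follow exon length (rho = −0.10 over 31 rows).

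**Figure D1:**
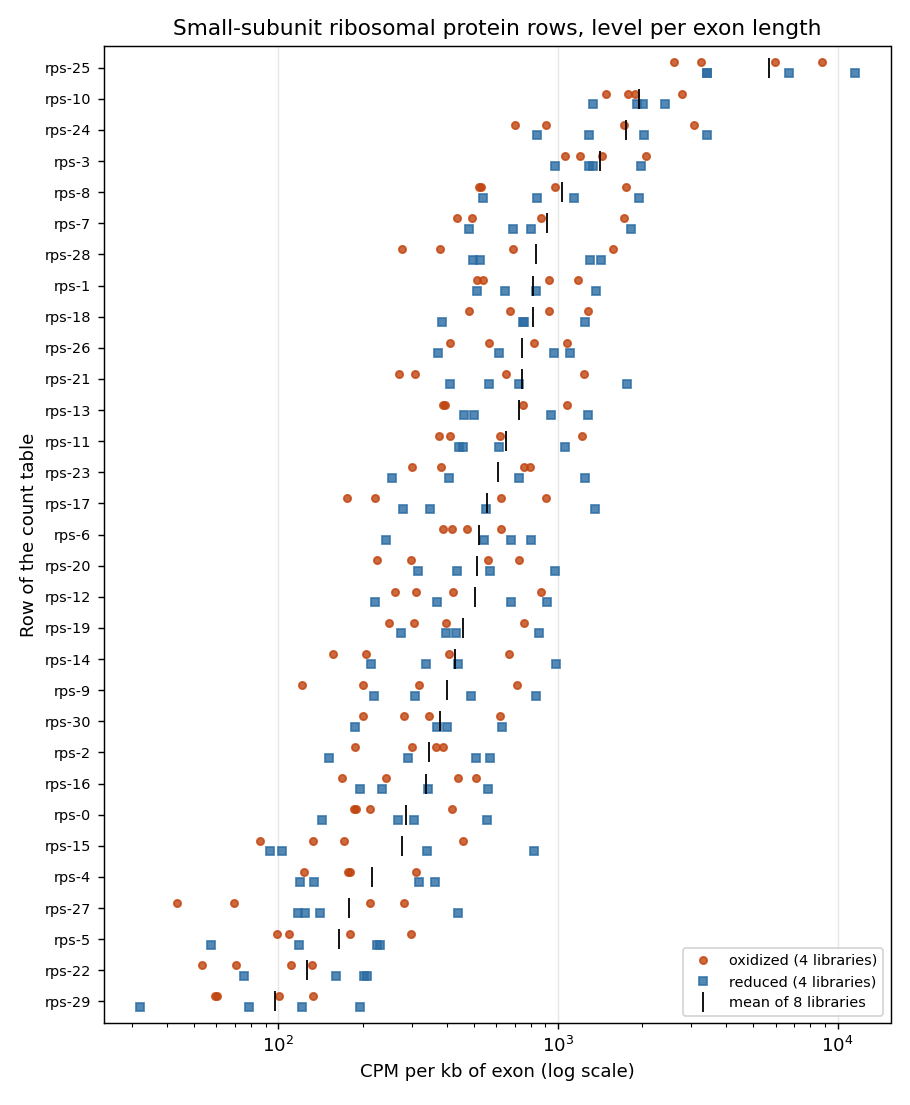
Level of each of the 31 rows in CPM per kb of exon (log axis), with rows ordered by their mean over 8 libraries (black bar), oxidized libraries as circles and reduced libraries as squares. The mean of the rps-25 row lies above the other means, although its lowest library lies below the highest libraries of rps-24 and rps-10. The remaining means form a gradual series down to rps-29, and the groups overlap in every row.

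The 31 rows' summed share of a library's counts swung widely and did so inside each group. It was 2.06%, 0.739%, 1.31% and 0.800% in oxidized replicates 1, 2, 3 and 5, and 1.02%, 2.66%, 1.31% and 0.740% in reduced replicates 1, 2, 3 and 5. One library in each group, oxidized replicate 1 and reduced replicate 2, lay above the other 6. The groups averaged 1.23% ± 0.613 in oxidized and 1.43% ± 0.852 in reduced worms (SD, n = 4 each), a difference of −0.20 percentage points that is smaller than the SD within either group. The span from lowest to highest library was 2.79-fold within oxidized and 3.6-fold within reduced worms. Without replicate 2 the difference was 0.37 and without replicate 1 it was −0.62 percentage points, so its direction rests on single replicates.

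**Figure D2:**
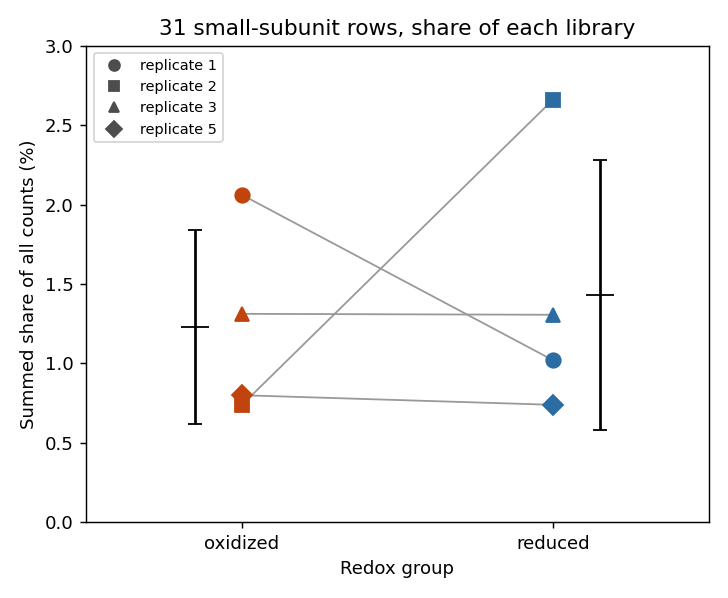
Summed share of all counts held by the 31 rows (percent, from 0) in each oxidized and reduced library; marker shapes and grey lines join libraries with the same replicate number, and black bars give the mean and SD of each group. The shares of oxidized replicate 1 (2.06%) and reduced replicate 2 (2.66%) stand above the rest, and the lines of replicates 1 and 2 cross.

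Rows of the large subunit swung with the small. Their 50 rows, named rpl or rla, held 2.79%, 0.979%, 1.76% and 1.05% of counts in oxidized replicates 1, 2, 3 and 5, against 1.44%, 3.47%, 1.72% and 1.07% in reduced replicates 1, 2, 3 and 5. The ratio of small to large summed counts stayed between 0.739 and 0.764 in oxidized and between 0.694 and 0.767 in reduced libraries. The libraries with the highest shares, oxidized replicate 1 and reduced replicate 2, were also the highest in other quantities. Their total counts were 1089259 in oxidized replicate 1 and 878710 in reduced replicate 2, against 635990 to 828638 in the other 6 libraries. Rows with at least 1 count numbered 7548 in oxidized replicate 1 and 7447 in reduced replicate 2, against 5058 to 6593 in the others. The mitochondrial protein-coding rows held 50, 3, 12 and 14 counts in oxidized and 24, 35, 27 and 25 in reduced replicates 1, 2, 3 and 5, again highest in these libraries. The part of depth or library quality in the swing was not tested.

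Most of the variation between libraries was common to the 31 rows. After each row's mean log2 CPM was removed, 80.6% of the sum of squares was a shift shared by all rows of a library, and 19.4% was left to single rows. The same split gave 68.2% for 47 tested large-subunit rows and 0.252% for all 2315 rows tested. Those 2315 rows include the ribosomal rows, and TMM scaling centres their bulk. The shared shift had an SD of 0.71 (log2) among oxidized and 0.73 among reduced libraries, while the group means differed by −0.23. From the lowest library, oxidized replicate 5, to the highest, reduced replicate 2, it spanned 3.41-fold. All 465 pairs of rows had a positive correlation of log2 CPM over the 8 libraries, with a median Pearson's r of 0.88 and a lowest of 0.40 (rps-2 with rps-28). These are descriptions over 8 libraries that all rows share.

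The libraries fell in the same places for nearly every row. In all 31 rows, oxidized replicate 1 was above the other oxidized libraries, and in 28 reduced replicate 2 was above the other reduced libraries. The highest of the 8 libraries was oxidized replicate 1 or reduced replicate 2 in 29 rows. The lowest was oxidized replicate 2 in 5 rows, oxidized replicate 5 in 13 and reduced replicate 5 in 13.

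**Figure D3:**
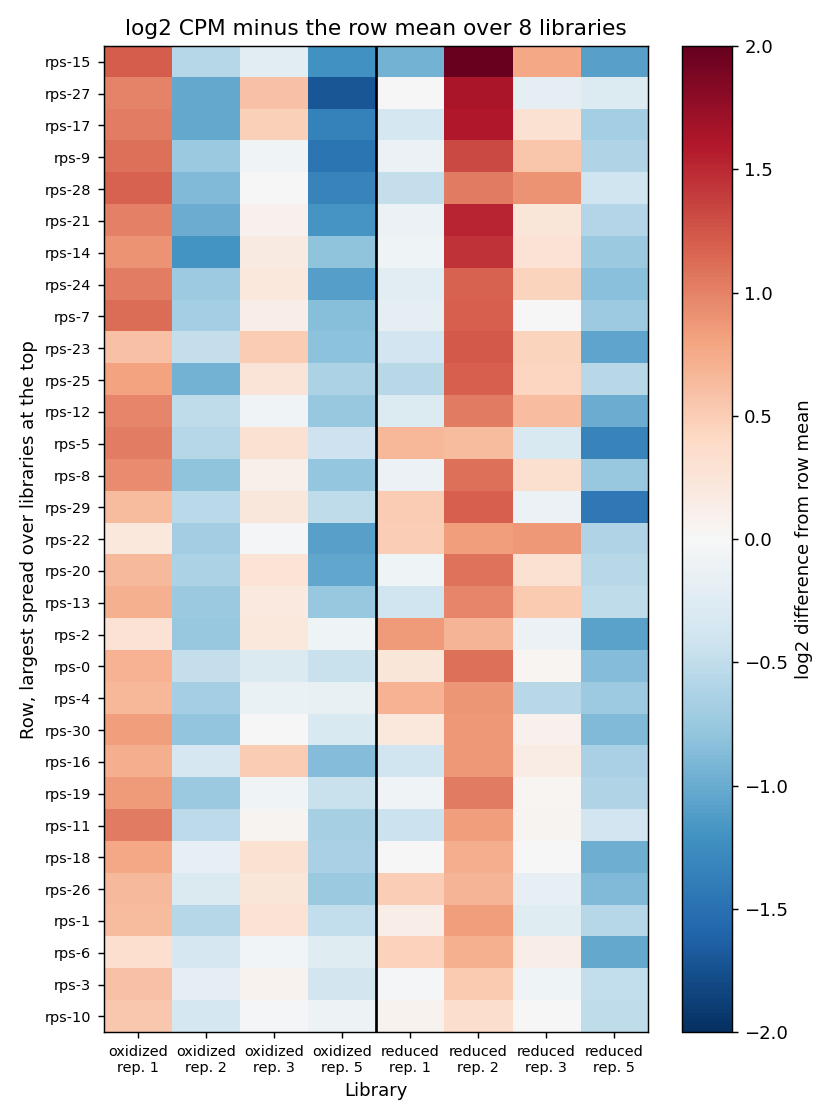
Log2 CPM of each of the 31 rows minus that row's mean over the 8 libraries, with oxidized libraries left of the black line and reduced libraries right of it, and rows ordered by their spread. The columns of oxidized replicate 1 and reduced replicate 2 are red in all rows, and those of oxidized replicates 2 and 5 and reduced replicate 5 are blue in all rows.

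The size of the swing differed between rows. The fold from lowest to highest library was 2.07 for rps-10, 3.89 at the median and 10.2 for rps-27. The SD of log2 CPM over the 8 libraries ran from 0.34 to 1.18, with a median of 0.71. Over all rows tested the median SD was 0.79. These medians were not matched for counts, and 24 members were among the 500 most counted rows. Counting error alone would give the members a median SD of 0.115 (log2). That value is not given here for all rows tested. Whether members varied more than rows of similar counts was not tested.

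The steadiest rows were rps-10, rps-3 and rps-6. The rps-10 row had 1365, 734, 927 and 875 CPM in oxidized replicates 1, 2, 3 and 5, against 989.8, 1193, 942 and 660.1 CPM in reduced replicates 1, 2, 3 and 5. The rps-3 row had 1650.5, 962, 1151 and 851 CPM in oxidized and 1071, 1586, 1036 and 779.6 CPM in reduced replicates 1, 2, 3 and 5. Both were among the most abundant rows, and both still peaked in oxidized replicate 1. The rps-6 row (Y71A12B.1, I 13952161 to 13953203), for the protein that S6 kinase phosphorylates in mammals, had 508, 317, 387 and 341 CPM in oxidized and 553, 655, 442 and 198 CPM in reduced replicates 1, 2, 3 and 5. Here reduced replicate 1 was also high, above every oxidized library.

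The widest swings belonged to rps-15, rps-27 and rps-17. The rps-15 row (F36A2.6, I 8815572 to 8816193), for a protein of the head close to the decoding site, had 226, 65.5, 84.6 and 42.1 CPM in oxidized replicates 1, 2, 3 and 5, against 50.8, 404, 167 and 45.9 CPM in reduced replicates 1, 2, 3 and 5. The rps-27 row had 104, 25.6, 78.3 and 16 CPM in oxidized and 52.1, 162, 45.9 and 43.4 CPM in reduced replicates 1, 2, 3 and 5. Its counts were small, between 11 and 162 a library. The rps-17 row (T08B2.10, I 6220093 to 6220764) had 419.8, 102, 289.7 and 81.3 CPM in oxidized and 162, 628, 256 and 129 CPM in reduced replicates 1, 2, 3 and 5. All 3 had their highest value in reduced replicate 2 and their lowest in oxidized replicate 5. Shorter rows tended to swing more, with rho = −0.43 between SD and exon bases over the 31 rows, and rho = −0.37 between SD and total counts. Length and counts are themselves properties of the same rows, and neither relation was tested.

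What was left after the shared shift was largest for rps-15, which lay 0.98 (log2) above the place that its mean and the library's shift would give in reduced replicate 2, and below it in reduced replicate 1 (−0.90). The rps-2 row, for a protein near the messenger RNA entry, lay 0.86 above that place in reduced replicate 1. The rps-2 row had 386, 188, 365 and 299 CPM in oxidized and 572, 509, 291 and 151 CPM in reduced replicates 1, 2, 3 and 5, so that it alone peaked in reduced replicate 1. The remainder followed exon length in opposite senses in different libraries. Over the 31 rows rho was −0.33, 0.27, −0.28 and 0.46 in oxidized and 0.46, −0.42, −0.27 and −0.13 in reduced replicates 1, 2, 3 and 5. Longer rows were thus relatively higher in oxidized replicate 5 and reduced replicate 1, which are in different groups. Fragment length and RNA quality of the libraries were not analysed here.

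Comparing oxidized with reduced worms asked whether larvae of one age that differ in redox state differ in the values of these rows. All 31 rows passed the filter on low counts, and none was called higher or lower in oxidized worms. Of 2315 rows tested, 0.216% were called higher and 0% lower (edgeR, quasi-likelihood; p adjusted by Benjamini-Hochberg over all rows tested, threshold 0.05). Among the members there were 0 at an unadjusted p under 0.05, against 5.27% of all rows, and 0 were called by DESeq2 or limma voom. With the replicate number as a block, 0 of 31 were called, beside 0.475% of all rows higher and 0.173% lower. Fitted log2 fold changes ran from −0.79 to 0.14, with SEs of 0.32 to 0.63, so changes of that order could not be resolved. A total of 25 of 31 lay below 0, where 54.2% of all rows did, with a median of −0.24 beside −0.05 over all rows. In no row did the oxidized and reduced CPM ranges lie apart, against 1.99% of all rows apart and higher and 0.994% apart and lower.

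No marker row of the other cell types passed the test after adjustment, and the summed levels of each list overlapped between the groups. The summed level of the hypodermis rows (dpy-7, dpy-10, rol-6, sqt-3 and col-12) was 4950 to 12111 CPM in oxidized and 2211 to 7003 CPM in reduced libraries, and 5 of 5 had an unadjusted p under 0.05 in edgeR, 4 of them higher in oxidized worms. Body wall muscle markers summed to 403 to 882 CPM in oxidized and 422 to 1853 CPM in reduced libraries, with 5 of 5 below 0 and 1 at an unadjusted p under 0.05. Of all rows tested, 5.27% had an unadjusted p under 0.05 in edgeR and 54.2% lay below 0. The 5 intestine rows summed to 155 to 307 CPM in oxidized and 55.5 to 476 CPM in reduced libraries, and the 5 neuron rows to 122 to 173 and 97.8 to 179 CPM in oxidized and reduced libraries. The part of cell makeup in the rps values was not tested.

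The row with the smallest p was rps-22, for the protein uS8. It had 93.0, 49.8, 78.3 and 37.7 CPM in oxidized replicates 1, 2, 3 and 5, against 114, 143, 146 and 53.1 CPM in reduced replicates 1, 2, 3 and 5. The oxidized library was the lower in all 4 replicates, which held for no other row, although the groups overlapped. The log2 fold change was −0.79 (SE 0.47, edgeR unadjusted p = 0.104, adjusted p = 0.999). The next rows were rps-15, with −0.65 (SE 0.58), rps-21, with −0.48 (SE 0.48), and rps-14, with −0.44 (SE 0.48), each at an adjusted p of 0.999 in edgeR.

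The rps-21 (F37C12.11) and rps-14 (F37C12.9) genes lie close together on chromosome III, at 7189178 to 7189631 and 7178991 to 7179588, on the same strand. The rps-14 row, for a protein of the platform, had 339, 79.7, 207 and 105 CPM in oxidized and 171, 498, 223 and 109 CPM in reduced replicates 1, 2, 3 and 5. The rps-21 row had 378, 93.9, 199 and 82.7 CPM in oxidized and 174, 541, 221 and 126 CPM in reduced replicates 1, 2, 3 and 5. The highest and lowest libraries lay 6.24-fold apart for rps-14 and 6.53-fold apart for rps-21, and the groups overlapped in both.

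Among rows fixed for their roles, rps-0 (B0393.1), whose human homologue is also known as a laminin receptor, had 368, 164, 186 and 167 CPM in oxidized and 268, 489, 235 and 126 CPM in reduced replicates 1, 2, 3 and 5 (log2 fold change −0.33, SE 0.42). The rps-23 row (F28D1.7), for the protein uS12 at the decoding centre, had 384, 184, 365 and 145 CPM in oxidized and 196, 601, 349 and 123 CPM in reduced replicates 1, 2, 3 and 5 (−0.24, SE 0.44). The rps-30 row (C26F1.4), for a protein made in mammals as a fusion with a ubiquitin-like protein, had 295, 95.4, 164 and 134 CPM in oxidized and 191, 301, 175 and 89.3 CPM in reduced replicates 1, 2, 3 and 5 (−0.12, SE 0.43). None passed the edgeR test, and in each of them the groups overlapped. The rps-24 and rps-25 rows were also unresolved, at −0.24 (SE 0.43) and −0.28 (SE 0.41), as were rps-3 and rps-10, at 0.04 (SE 0.33) and 0.05 (SE 0.32).

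**Figure D4:**
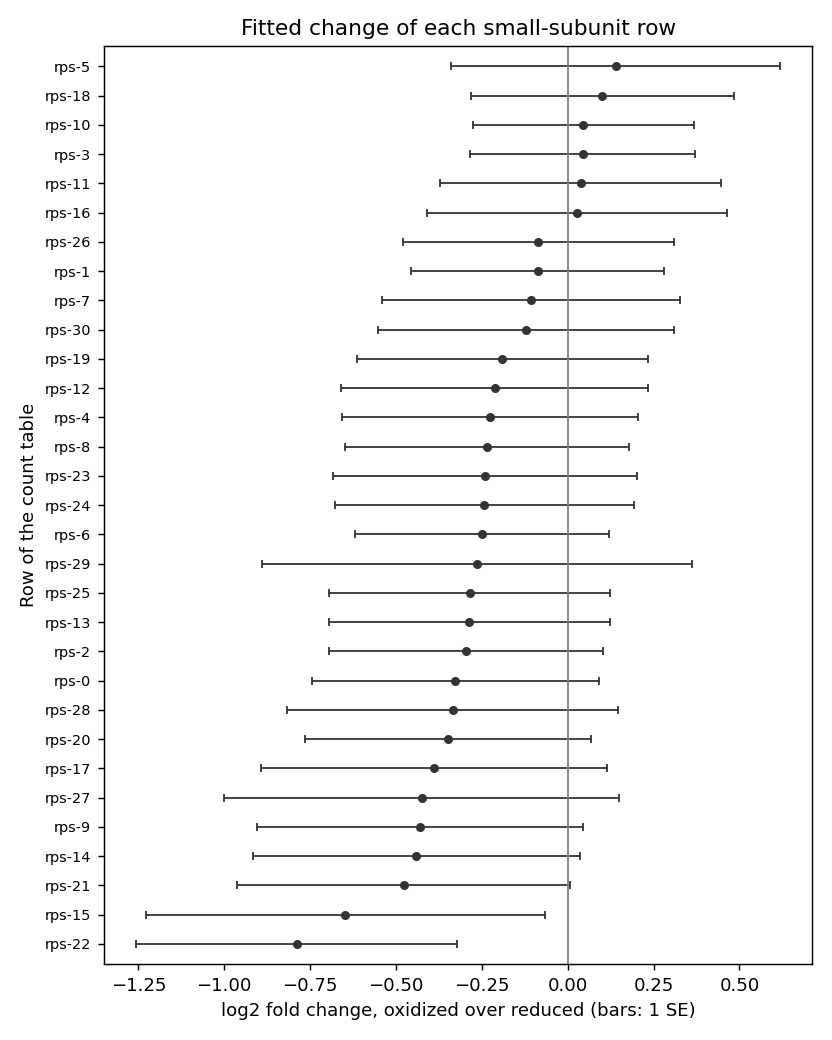
Fitted log2 fold change, oxidized over reduced, of each of the 31 rows, with bars of 1 SE. Values run from −0.79 (rps-22) to 0.14 (rps-5), and 25 of the 31 lie below 0.

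The replicates did not share a direction. Replicates 1 and 2 have the same date, so the pairing there rests on the replicate number and on tags in the titles. Both titles of replicate 2 carry a tag and a suffix that those of replicate 1 lack. In replicate 1 the oxidized library was higher in 27 of 31 rows, where 50.9% of all rows tested were higher and 48.9% lower, and the median log2 ratio was 0.96. The 4 rows that went the other way were rps-2 (−0.56), rps-22 (−0.29), rps-6 (−0.12) and rps-4 (−0.04). In replicate 2 the oxidized library was lower in 31 of 31 rows, against 49.4% of all rows lower and 50.6% higher, with a median of −1.70. Replicates 3 and 5 showed neither shift: 14 and 15 of 31 rows were higher in the oxidized library, against 51.4% and 51.5% of all rows higher and 48.4% and 48.3% lower, with medians of −0.03 and −0.02. Ratios were taken of CPM with 0.5 added.

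Changes of more than 2-fold were seen in the same replicates. In replicate 1, 13 of 31 rows were over 2-fold higher in the oxidized library, and 0 over 2-fold lower, against 22.2% and 19.2% of all rows. In replicate 2, 27 of 31 were over 2-fold lower in it and 0 over 2-fold higher, against 26.5% and 20.6% of all rows. In replicate 3 no row passed 2-fold either way, against 19.8% of all rows higher and 15.3% lower. In replicate 5 only rps-27 did, at a log2 ratio of −1.42, against 18.4% of all rows higher and 14.9% lower. Large-subunit rows followed a similar course, with 41, 0, 23 and 19 of 47 tested rows higher in the oxidized library of replicates 1, 2, 3 and 5. Of these 47 rows, 23, 0, 2 and 4 were over 2-fold higher in it, and 0, 42, 0 and 2 over 2-fold lower, in the same order.

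**Figure D5:**
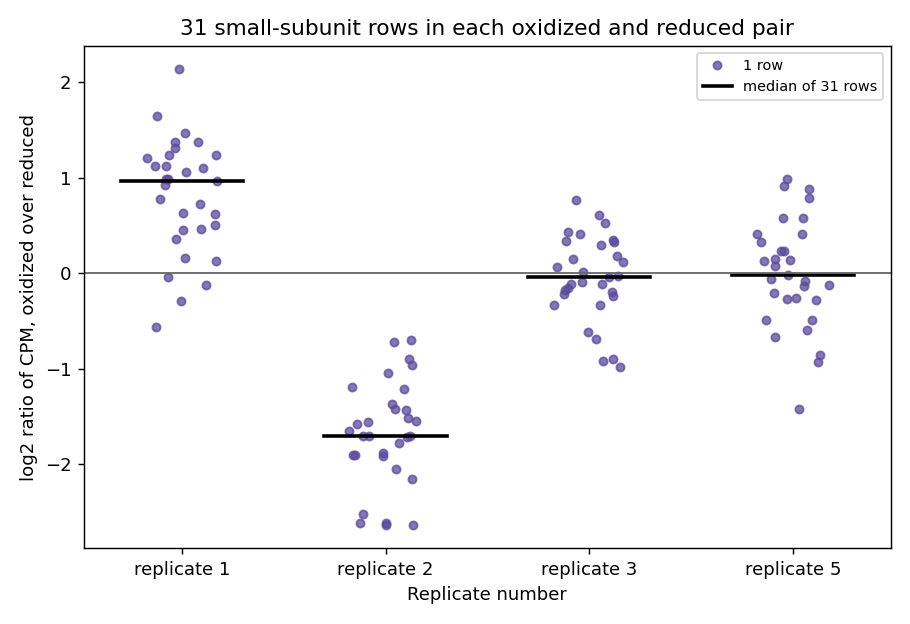
Log2 ratio of CPM, oxidized over reduced, in each replicate, with 1 point per row and a black line at the median of the 31 rows. The median is 0.96 in replicate 1, −1.70 in replicate 2, −0.03 in replicate 3 and −0.02 in replicate 5.

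The fitted direction therefore depended on which replicate was in the fit. Without replicate 1, 31 of 31 rows lay below 0 with a median log2 fold change of −0.76, 10 rows had an unadjusted p under 0.05, and the smallest adjusted p was 0.251 (edgeR). Without replicate 2, 1 of 31 lay below 0, rps-22, and the median was 0.41. Leaving out single libraries gave the same contrast, with 31 of 31 below 0 without oxidized replicate 1 and 4 of 31 without reduced replicate 2. Titles give replicates 1 and 2 the date June28, replicate 3 July7 and replicate 5 August6. Within June28 the summed share averaged 1.4% in oxidized and 1.84% in reduced worms, over 2 libraries each; within July7 it was 1.31% in both groups, and within August6 0.800% in oxidized and 0.740% in reduced worms, with 1 library each. With the labels of replicate 5 exchanged, 28 of 31 rows lay below 0 and 0 passed. For these refits, the shares of all tested rows below 0 or at an unadjusted p under 0.05 are not given here. The member counts therefore cannot be read against them.

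The companions of the subunit behaved differently from each other. The row of rack-1, a scaffold protein on the head, had 297, 114, 155 and 119 CPM in oxidized and 343, 326, 120 and 116 CPM in reduced replicates 1, 2, 3 and 5 (log2 fold change −0.38, SE 0.44, edgeR adjusted p = 0.999). It was high in both libraries of replicate 1, unlike most rps rows. The row of ubl-1, whose protein carries a ubiquitin-like part fused to a ribosomal part, had 581, 272, 289.7 and 335 CPM in oxidized and 349, 499.5, 359 and 257 CPM in reduced replicates 1, 2, 3 and 5 (0.02, SE 0.36, edgeR adjusted p = 0.999). It swung 2.26-fold between libraries.

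Other rows of the translation machinery gave no call either. Of 50 large-subunit rows 47 were tested, and 0 rose and 0 fell. Of these, 42 lay below 0, where 54.2% of all rows did. Their median log2 fold change was −0.20, beside −0.05 over all rows. Most of them went opposite ways in replicates 1 and 2, as given above. The rpl-7A row had the smallest p, at −0.77 (SE 0.44). All 6 elongation factor rows were tested and none passed, with a median of −0.27; eef-1A.1, which brings transfer RNAs to the ribosome, had −0.53 (SE 0.42). Of 36 initiation factor rows 7 were tested, with a median of −0.23 and ifg-1 at −1.06 (SE 0.72). Of 19 ribosome biogenesis rows 8 were tested, with a median of −0.29 and fib-1, the nucleolar methyltransferase fibrillarin, at −0.66 (SE 0.69). Among mitochondrial ribosomal proteins 0 of 29 small-subunit and 3 of 40 large-subunit rows could be tested, and the 29 rows held 392 counts in all. In these lists 0 rows had an unadjusted p under 0.05, and 0 passed adjusted over all rows (edgeR), beside 0.216% of all rows called higher and 0% lower.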

How the data were processed

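Per the labels' protocols, Trizol extracts were purified on columns, ribosomal RNA was removed from 100 ng of RNA, and a stranded kit with 15 PCR cycles gave libraries for paired-end reads of 50 nt. The molecule label instead names polyA RNA. Tools in the submitters' processing notes, listed there with no roles, are Cuffdiff 2.1.1, Cufflinks, Bowtie2 2.2.1, TopHat2 2.0.13 and FastQC 0.11.3. No source used here states the build, annotation or strand setting of the counting.

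Raw counts were deposited for 45461 rows, of which 32245 had none in any library. A further 2 columns match no labelled sample and were not used. Groups follow the redox characteristic. Ensembl's WBcel235 annotation, which 44933 rows matched, gave symbols, positions and merged exon lengths. The edgeR quasi-likelihood test (version 4.0.16 in R 4.3.3, robust, legacy = FALSE) was run on all 8 libraries after filterByExpr and TMM, with p adjusted over 2315 rows. A check on simulated data drew each row independently, with no shift shared by rows of a library, so it does not cover rows that move together. SEs are the log2 fold change divided by the root of F. CPM uses TMM-scaled totals, shares use raw totals, and log2 CPM has a prior count of 2. Limma 3.58.1 and DESeq2 1.42.0 served as alternatives. Sums and medians over the members were not tested.

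The replicate block uses the labels' replicate number. Same-numbered libraries also share a title date, but replicates 1 and 2 have the same date. Between them the number and the title tags pair libraries, since only the titles of replicate 2 carry a tag and a suffix. In replicates 3 and 5 the tag differs between the oxidized and the reduced library, and the titles do not give its meaning. Over rows, which are not independent, departures from the group means correlated between libraries of one number at 0.06, −0.16, 0.13 and 0.30 in replicates 1, 2, 3 and 5. Other pairs ran from −0.46 to 0.41, the highest of all being oxidized replicate 1 with reduced replicate 2, both of June28. P-values measure the spread between these pools of worms. The members follow from gene names alone, but this gene family, the lists and the tests were chosen with earlier results of these data known. Rows named with values were the 4 highest and 4 lowest per exon length, the 4 with the smallest p, the 3 steadiest and 3 widest over libraries, 6 fixed members and 2 companions. The values of rps-2 and rps-4, the neighbours in the abundance order and the overlap of T01C3.11 were singled out after they were seen.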

Additional observations from a re-analysis of the deposited data

Results flagged for a closer look

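The 31 members and the summed share, in each redox group of 4 libraries, gave 64 sets checked for a distant library. There were 2 such sets, and about 3.2 would arise by chance. For rps-0, oxidized replicate 1 read 368 CPM, against 164 to 186 CPM elsewhere among oxidized worms. For rps-27, reduced replicate 2 read 162 CPM, against 43.4 to 52.1 CPM elsewhere among reduced worms. Each is the library with the highest summed share of small-subunit rows in its group.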

How the results depend on the processing

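No small-subunit row was called in either direction under any alternative: other scalings, other filters, DESeq2, limma voom, the legacy setting, the replicate block, exchanged labels in replicate 5, and fits without 1 library or 1 replicate. Over all rows tested, where 5 were higher and 0 lower, higher calls numbered 9 with DESeq2, 3 with limma voom, 3 with the legacy setting, 3 with TMM factors from rows other than ribosomal proteins, and 0 with replicate 5 exchanged. Without a filter they numbered 9, with 1 lower. With the replicate block they numbered 11, with 4 lower, and the block changed no call of a small-subunit row. Leaving out libraries or replicates gave 1 to 12 higher and 0 to 3 lower rows. Without oxidized replicate 1 and reduced replicate 2 together, a choice made after seeing the data, 2 rows were higher.

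The median log2 fold change of the members ran from −0.76 to 0.41 when libraries or replicates were left out, and the difference in summed share from −0.62 to 0.37 percentage points. Over those same fits, the lowest and highest fitted values were −0.90 and 0.42 for rps-25, −0.94 and 0.41 for rps-24, −1.18 and 0.54 for rps-27, −0.60 and 0.42 for rps-29, −1.74 and 0.49 for rps-15, −1.30 and 0.38 for rps-21, −1.14 and 0.41 for rps-14, −1.16 and 0.56 for rps-17, −0.47 and 0.082 for rps-6, −0.76 and 0.24 for rps-0, −0.67 and 0.44 for rps-23, −0.57 and 0.42 for rps-30, −0.17 and 0.31 for rps-10, −0.22 and 0.36 for rps-3, and −0.31 and 0.58 for rps-5. Only rps-22 among the named rows kept its sign in them, at −1.07 to −0.53. With replicate 5 exchanged, rps-10 stood at −0.12, rps-3 at −0.0048, rps-5 at −0.10 and rps-6 at −0.50. Without oxidized replicate 1 and reduced replicate 2, 27 of 31 rows lay below 0, with a median of −0.21. The share of all tested rows below 0 in that fit is not given here. The difference in summed share was then −0.07 percentage points. The named rows that changed sign there were rps-10, at −0.03, rps-5, at −0.07, and rps-23, at 0.06. The rps-25 row stood at 8.54 times the median row when CPM were not divided by length, 8.46 times in oxidized replicate 2 and 7.79 times in reduced replicate 1. Depth limits the lowest rows, rps-29 above all.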
